A study of Mus musculus with 6 samples.

Results

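The Ifitm genes encode interferon-induced transmembrane proteins, small membrane proteins that restrict the entry of enveloped viruses into cells. The family as examined here is the 6 genes Ifitm1, Ifitm2, Ifitm3, Ifitm5, Ifitm6 and Ifitm7, selected on gene symbol among the 23224 genes of the deposited table of expected counts, in which all 6 have a row. The family was chosen by values already known of the comparison below, the higher levels of members in the SOX17KO libraries, so the members' levels are given as a description with no test. Of the 6 members, 3 (Ifitm1, Ifitm2 and Ifitm3) had enough counts to pass the low-count filter, which kept 12137 genes. Each of the 3 had at least 15 counts in every library, and they are not taken to stand for the family.

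RNA was sequenced from mouse tumour organoids labelled AKP; the labels used here do not spell out the alleles behind that name, which both groups carry. All 6 libraries came from organoids that were derived from tumours grown in vivo. The Control group has 3 libraries and the SOX17KO group has 3, whose genotype was made with CRISPR-Cas9 to examine what SOX17, an endoderm transcription factor, does in colon cancer. The labels give neither the number of knockout clones nor whether the libraries of a group were separate cultures. Every p-value below sets a group difference against the spread between these libraries, estimated with information from all genes. That spread may be technical.

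Interferons bind their receptors and, through the JAK kinases, activate STAT transcription factors. These factors act at short sites near their target genes, among them the interferon-stimulated response element (ISRE) and the GAS element. IFITM3 and IFITM2 lie mainly in endosomal and lysosomal membranes and IFITM1 mainly at the cell surface, where they hinder the fusion of viral and cellular membranes. IFITM5 is the exception, a protein of bone-forming osteoblasts. In the intestine, Ifitm transcripts have been described in crypts and in tumours.

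The sequences before the starts of the 3 members that passed the filter are shown because the 3 genes were higher together. RefSeq supplied them, with positions on its GRCm38.p6 build, whereas the deposited counts were made on mm9. Each runs 5′ to 3′ on the gene's own strand up to the first base that GENCODE M21 places in an exon, with matches to the ISRE core in capitals. The Ifitm1 stretch is chr7:140967826-140968027 on the plus strand, that of Ifitm2 chr7:140955988-140956211 on the minus strand and that of Ifitm3 chr7:141010771-141010994 on the minus strand.
Ifitm1: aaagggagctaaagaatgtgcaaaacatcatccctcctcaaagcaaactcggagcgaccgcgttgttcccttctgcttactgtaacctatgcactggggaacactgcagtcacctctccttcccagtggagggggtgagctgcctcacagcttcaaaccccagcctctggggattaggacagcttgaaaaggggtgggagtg
Ifitm2: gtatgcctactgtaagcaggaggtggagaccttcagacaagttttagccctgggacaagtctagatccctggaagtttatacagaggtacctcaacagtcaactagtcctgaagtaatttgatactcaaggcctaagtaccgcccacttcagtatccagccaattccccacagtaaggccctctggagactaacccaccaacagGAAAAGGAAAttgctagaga
Ifitm3: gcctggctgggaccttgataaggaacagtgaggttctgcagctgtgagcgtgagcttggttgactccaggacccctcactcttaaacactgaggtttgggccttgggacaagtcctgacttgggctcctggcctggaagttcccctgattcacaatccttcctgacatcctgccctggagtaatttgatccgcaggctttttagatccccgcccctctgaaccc

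The ISRE core was searched as GAAANNGAAA and the GAS core as TTCNNNGAA, both strands, in windows of 300 bases that start 250 bases before the RefSeq start; all 6 members had a window. Ifitm2 had 1 ISRE core match, which begins 46 bases before the start. Ifitm3 had 2, at bases 3 and 20 counted from the start as base 1, inside an exon of GENCODE M21. They are shown in capitals in the next line, which is chr7:141010713-141010742 on the minus strand.
Ifitm3 start: GAAAAGGAAActtctgaGAAACCGAAActg
Between them Ifitm3 had a GAS core match that begins at base 14 and overlaps the ISRE match at base 20. Ifitm1, Ifitm5, Ifitm6 and Ifitm7 had no ISRE core match, and among these Ifitm6 had a GAS core match. An ISRE core match was present in 3.49% of 27025 windows, 1 for each gene, and a GAS core match in 8.47%. Among windows of tested genes the shares were 2.81% and 6.90%. A SOX core (ATTGT, both strands) was found in the windows of Ifitm1, Ifitm2, Ifitm3 and Ifitm6 and in 31.6% of all windows and 20.3% of those of tested genes. A core of the Wnt factors TCF and LEF (CTTTGA, both strands) was found in those of Ifitm1, Ifitm5 and Ifitm6 and in 16.2% of all windows and 11.98% of those of tested genes. These are letter matches and do not show binding.

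Levels are in CPM, the counts scaled to a common library size with edgeR's TMM factors. The libraries held 18290912 to 27503254 counts. SOX17KO replicate 1 stood apart: over genes, its log2 CPM had a Pearson r of 0.960 with replicate 2 and 0.963 with replicate 3 of its group, against 0.986 between those. Values without it are given for the 3 members and for some of the other genes named below. Sox17 itself was at 34.4, 34.5 and 34.2 CPM in Control replicates 1, 2 and 3 and, in the SOX17KO libraries in the same order, at 33.8, 41.8 and 45.1 CPM. Sox17 was not called by the quasi-likelihood test of edgeR (log2 fold change 0.23 ± 0.12 SE; adjusted p = 0.345 after Benjamini-Hochberg), and without SOX17KO replicate 1 it was 0.34 (edgeR adjusted p = 0.0113). The RNA level therefore does not check the label, and SOX17KO below means the libraries labelled so. The 7 epithelial markers summed to 13139 to 13927 CPM in Control and to 9657, 13840 and 13823 CPM in SOX17KO replicates 1, 2 and 3. Fibroblast markers summed to at most 0.420 CPM in any library, with Col3a1, Dcn, Lum and Thy1 at 0 throughout. Endothelial markers summed to at most 1.03 CPM. Of the 8 leukocyte markers, Cd3e was at 0, and Cd68 held most of the list's 5.18 to 14.1 CPM. The lower epithelial sum of SOX17KO replicate 1 came from the keratins Krt8, Krt18 and Krt19, while Epcam was at 677.3 CPM there against 523.3 to 541.8 CPM in Control, and Cdh1 and Cdx2 were also above all Control libraries. Epcam was called higher in SOX17KO (edgeR adjusted p = 0.0343). The part of these marker levels in the results below was not tested.

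Ifitm3, the best-studied restriction factor of the family, was at 7.05, 7.03 and 7.64 CPM in Control replicates 1, 2 and 3. In SOX17KO replicates 1, 2 and 3 it was at 270.7, 62.9 and 52.7 CPM. All SOX17KO libraries lay above all Control libraries, and SOX17KO replicate 1 was 4.68 times the mean of the other two. The group means were 7.24 ± 0.348 and 128.8 ± 123.0 CPM (SD, n = 3), with a log2 fold change of 4.15 ± 0.69 (SE). It was 2.99 when SOX17KO replicate 1 was left out, and the mean of SOX17KO replicates 2 and 3 was 7.99 times that of Control.

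Ifitm1, whose protein sits mainly at the cell surface, was nearly silent in Control, at 0.579, 0.717 and 0.761 CPM in replicates 1, 2 and 3. In SOX17KO replicates 1, 2 and 3 it was at 41.3, 9.87 and 5.82 CPM. Again the groups did not overlap and SOX17KO replicate 1 was the highest. The means were 0.686 ± 0.0950 and 19.0 ± 19.4 CPM (SD, n = 3), and the log2 fold change was 4.79 ± 0.83 (SE), or 3.52 without SOX17KO replicate 1. The Control group had 51 counts in all and the SOX17KO group 1413.

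Ifitm2, an endosomal member, had the highest Control level of the 3 and the smallest difference. It was at 13.999, 15.2 and 15.3 CPM in Control replicates 1, 2 and 3 and at 73.4, 66.8 and 55.3 CPM in the SOX17KO libraries in the same order. The groups did not overlap, and the SOX17KO libraries lay close to each other. The means were 14.8 ± 0.734 and 65.2 ± 9.18 CPM (SD, n = 3), with a log2 fold change of 2.14 ± 0.12 (SE) that was 2.04 without SOX17KO replicate 1. The highest SOX17KO library was 1.33 times the lowest for Ifitm2, 5.13 times for Ifitm3 and 7.10 times for Ifitm1. In Control the same ratios were 1.09, 1.09 and 1.31. The spread among SOX17KO libraries was thus wide for Ifitm1 and Ifitm3 and narrow for Ifitm2. The cause of this difference in spread was not tested.

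**Figure D1:**
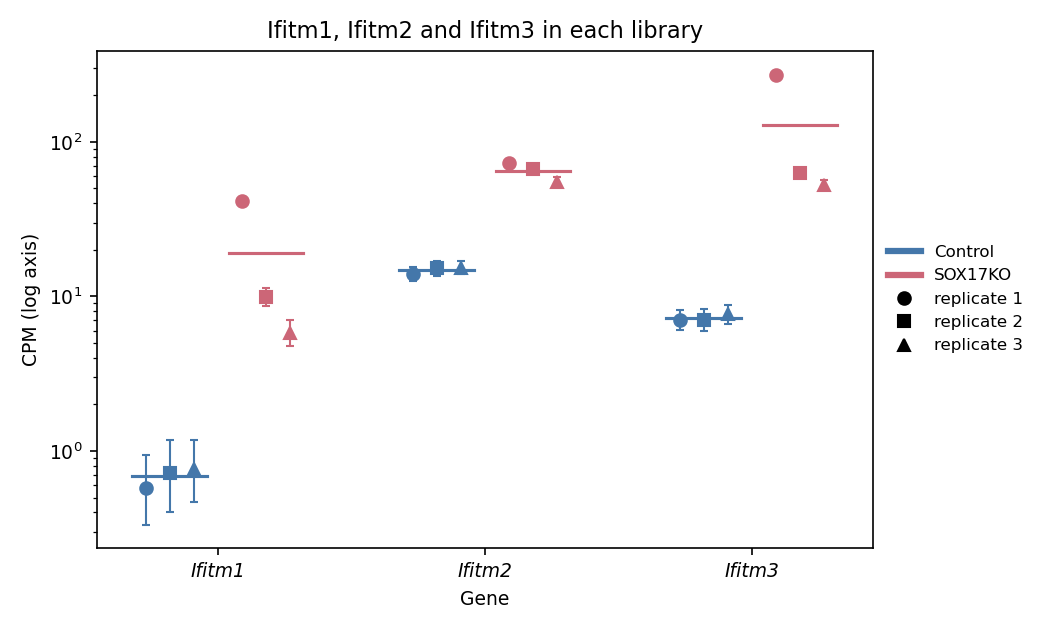
CPM on a log axis of Ifitm1, Ifitm2 and Ifitm3 in each of the 6 libraries, with the group mean as a bar and the 95% Poisson interval of each count, which covers counting error only, as whiskers. In each gene the SOX17KO libraries lie above the Control libraries; SOX17KO replicate 1 stands above the other two for Ifitm1 and Ifitm3, while the SOX17KO libraries for Ifitm2 lie between 55.3 and 73.4 CPM.

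By edgeR's test at an adjusted p below 0.05, 3.67% of tested genes were called higher and 3.2% lower. All SOX17KO libraries were above all Control libraries in 13.9% of tested genes, as for the 3 members, and below them in 14.2%; since the family was chosen on this contrast, nothing is read from the members' share. By log2 fold change Ifitm1 ranked 20, Ifitm3 ranked 34 and Ifitm2 ranked 167 among 12137 genes, counted from the largest increase. By the difference of each SOX17KO library from the Control mean, replicates 1, 2 and 3 put Ifitm1 at rank 9, 26 and 63, Ifitm3 at 16, 39 and 68 and Ifitm2 at 178, 114 and 180, so the ranks of Ifitm1 and Ifitm3 were highest in replicate 1. These are bulk values, in which more expressing cells and more RNA per cell cannot be told apart.

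The members were then compared with each other per kilobase, with the length of each gene's first-listed GENCODE M21 transcript (736 bases for Ifitm1, 655 for Ifitm2 and 678 for Ifitm3), since the lengths behind the deposited values were not stated. In Control the levels per kilobase ran from Ifitm2 at 22.7 ± 1.12, through Ifitm3 at 10.7 ± 0.513, to Ifitm1 at 0.932 ± 0.129 CPM per kilobase (SD, n = 3), with no overlap between neighbours in that order. In SOX17KO replicate 1 the order was Ifitm3 at 399.3, Ifitm2 at 112.1 and Ifitm1 at 56.1 CPM per kilobase. In SOX17KO replicates 2 and 3 Ifitm2 was at 101.98 and 84.4 and Ifitm3 at 92.8 and 77.8 CPM per kilobase, so these neighbours lay closer to each other than the libraries did. Ifitm1 stayed the lowest, at 13.4 and 7.90 CPM per kilobase.

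The make-up of the family's counts shifted accordingly. Ifitm2 held 64.7%, 66.3% and 64.6% of the summed counts of Ifitm1, Ifitm2 and Ifitm3 in Control replicates 1, 2 and 3. In SOX17KO replicates 1, 2 and 3 it held 19.0%, 47.8% and 48.6%. Ifitm3 held 30.6% to 32.6% in Control and 70.2%, 45.1% and 46.3% in SOX17KO replicates 1, 2 and 3. Ifitm1 held 2.68% to 3.21% in Control, and 10.7% in SOX17KO replicate 1 (95% Wilson interval 10.1% to 11.3%), 7.07% in replicate 2 (6.23% to 8.01%) and 5.11% in replicate 3 (4.24% to 6.15%). Such intervals cover counting error only, and reads copied by PCR are not independent molecules. The count of Ifitm3 was 0.462 to 0.504 times that of Ifitm2 in Control, and 3.69, 0.942 and 0.954 times in SOX17KO replicates 1, 2 and 3. In the shares of Ifitm2 and Ifitm3 the intervals of SOX17KO replicates 2 and 3 overlapped and replicate 1 lay apart, whereas in the share of Ifitm1 no intervals of the 3 SOX17KO libraries overlapped. The count of Ifitm1 was 0.0821 to 0.102 times that of Ifitm3 in Control and 0.153, 0.157 and 0.110 times in SOX17KO replicates 1, 2 and 3, so by this ratio replicate 1 lay next to replicate 2.

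**Figure D2:**
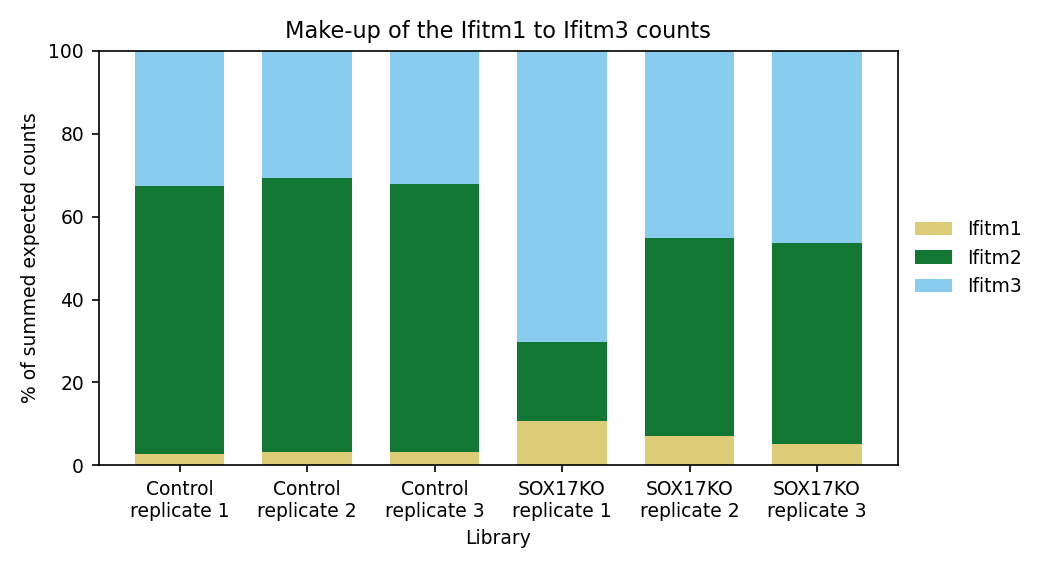
Share of the summed expected counts of Ifitm1, Ifitm2 and Ifitm3 held by each gene, as a percentage, in each of the 6 libraries. Ifitm2 holds 64.6% to 66.3% in the Control libraries, and Ifitm3 holds 70.2% in SOX17KO replicate 1.

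These genes are paralogues, and reads from identical stretches can be split between them by the counting. Of the 50-base stretches of the GENCODE M21 transcript of Ifitm3, 5.56% also occurred in Ifitm1 or Ifitm2. For Ifitm2 the share was 3.30%, all shared with Ifitm3, and for the first-listed transcript of Ifitm1 2.18%. No 50-base stretch of Ifitm5, Ifitm6 or Ifitm7 occurred in another member. The read length is not given in the sources used here, so how many reads were split between these genes is not known.

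The other members were at or near 0. Ifitm5, the osteoblast gene, had 3 counts over the Control libraries and 5 over the SOX17KO libraries. The 6 osteoblast markers summed to at most 0.160 CPM in any library, with Bglap, Bglap2, Ibsp and Dmp1 at 0. Ifitm6 had 1 count over Control and 4 over SOX17KO, all 4 in SOX17KO replicate 1. Ifitm7, which RefSeq places on chromosome 16 apart from the others on chromosome 7, had 0 counts in every library, which allows a level of up to 0.0401 CPM over the Control libraries and 0.0447 CPM over the SOX17KO libraries (3 counts over a group, counting error only). A difference in these 3 genes was not detectable at this depth. Of the wider family with the same CD225 domain, 7 genes had rows, and none passed the filter: Prrt1, Tmem90b, Tmem90a, Tmem233 and Tusc5 were at 0, and Tmem91 and Prrt2 had at most 17.2 counts over a group.

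The genes beside the Ifitm cluster were examined in the same comparison of the groups. In the order of RefSeq, Ifitm5, Ifitm2, Ifitm1, Ifitm3 and Ifitm6 follow each other on chromosome 7 with no other gene of the table between them. Of the 10 genes on each side, 17 were tested and 0 were called by edgeR, where 3.67% of all tested genes rose and 3.2% fell. At such shares 17 genes would hold few calls or none, so nothing about the neighbours is read from this count. An unadjusted edgeR p below 0.05 was found for 2 of the 17 and for 2463 of all 12137 tested genes. DESeq2 and limma-voom also called 0 of these neighbours. Their median log2 fold change was -0.12, against 0.01 over all tested genes. Athl1, a glycoside hydrolase gene next to Ifitm5, was at 18.4, 19.3 and 17.6 CPM in Control and 18.4, 24.6 and 21.6 CPM in SOX17KO, each in replicate order, and the difference was not called (edgeR adjusted p = 0.387). Leaving out SOX17KO replicate 1 made Athl1 a call, at 0.33 on the log2 scale (edgeR adjusted p = 0.0401). B4galnt4, a glycosyltransferase gene next to Ifitm6, was at 10.8 ± 0.277 and 10.1 ± 2.49 CPM (SD, n = 3; edgeR adjusted p = 0.866). Rnh1, which encodes the ribonuclease inhibitor and is the most abundant of the 17, was at 267.7 ± 2.73 and 245.8 ± 44.9 CPM (SD, n = 3; edgeR adjusted p = 0.715). Nlrp6, which encodes an inflammasome sensor of the intestinal epithelium, had the largest log2 fold change of the 17, 2.93 ± 0.86 (SE), and was not called (edgeR adjusted p = 0.0999). Its log2 fold change was 2.28 without Control replicate 1, 4.36 without Control replicate 2 and 2.43 without SOX17KO replicate 1, and it was called in none of these. Nlrp6 had 8 counts over Control and 61 over SOX17KO, at 1.37, 0.746 and 0.443 CPM in SOX17KO replicates 1, 2 and 3. Athl1 and B4galnt4 were named for their position and Nlrp6 after its value was seen.

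**Figure D3:**
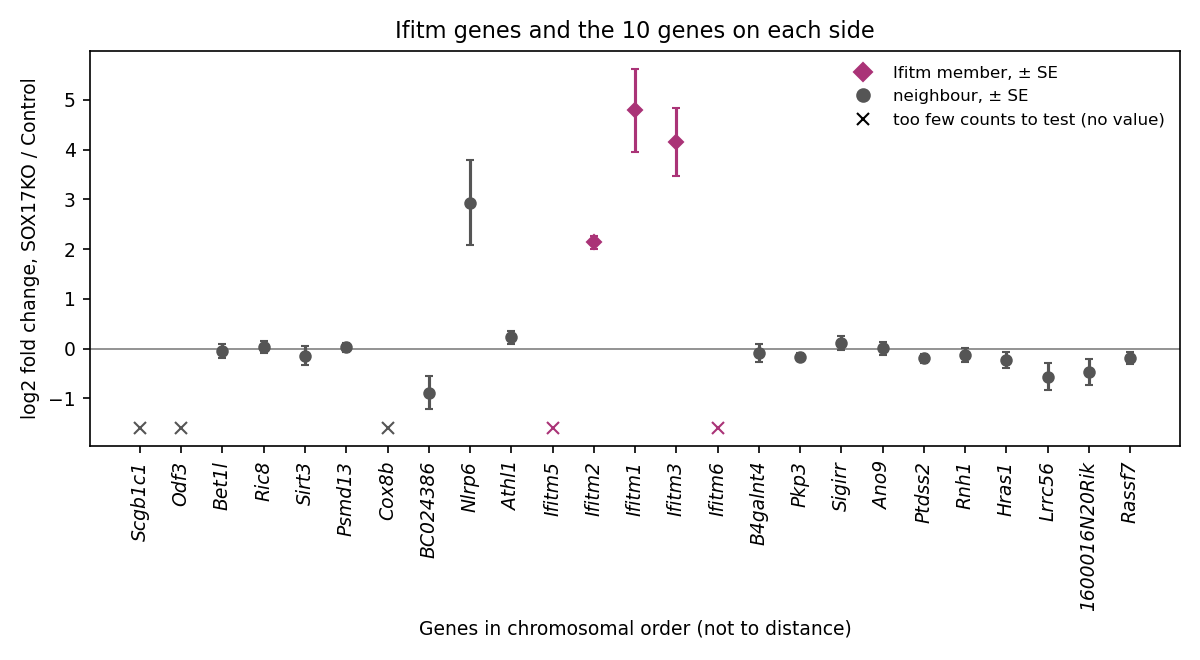
Log2 fold change of SOX17KO over Control, with its standard error, for the Ifitm genes and 10 genes on each side in chromosomal order; the horizontal axis is the order and not distance, and crosses mark genes with too few counts. Ifitm2, Ifitm1 and Ifitm3, which were chosen as higher in this contrast, lie between 2.14 and 4.79. Every tested neighbour except Nlrp6 lies at or below 0.23.

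Genes that interferon induces were examined from a list of 50, of which 49 had rows and 37 passed the filter. Of the 37, 3 rose, 0 fell and 34 were not called, where 3.67% of all tested genes rose and 3.2% fell. An unadjusted edgeR p below 0.05 was found for 14 of the 37 and for 2463 of all 12137 tested genes. The median log2 fold change of the 37 was 0.33, against 0.01 over all tested genes. All SOX17KO libraries lay above all Control libraries in 15 of the 37 (13.9% of all tested genes) and below them in 2 (14.2%). Lgals9, which encodes the lectin galectin-9, was at 1.52, 1.82 and 1.71 CPM in Control replicates 1, 2 and 3 and at 19.6, 13.0 and 10.9 CPM in the SOX17KO libraries in the same order. Its groups did not overlap, and its log2 fold change was 3.11 ± 0.26 (SE; edgeR adjusted p = 0.00132). Lgals9 stayed called with each library left out in turn (highest edgeR adjusted p 0.0208), and its log2 fold change was 2.83 without SOX17KO replicate 1. Ddx58, the gene of the cytosolic viral RNA sensor RIG-I, had group means of 12.9 ± 1.00 and 22.5 ± 1.54 CPM (SD, n = 3) and rose by 0.80 on the log2 scale (edgeR adjusted p = 0.00773). Bst2, which encodes tetherin, a membrane protein that holds budding virions, rose from 9.65 ± 0.532 to 15.6 ± 2.21 CPM (SD, n = 3), by 0.70 on the log2 scale (edgeR adjusted p = 0.0292). Without any one Control library Lgals9 was the 1 call of the list, and Bst2 was also not called without SOX17KO replicate 2. DESeq2, run without the filter, called 7 of 49 higher. Without SOX17KO replicate 1 edgeR called 9 of the list higher and 3 lower, and 2708 of all 12220 genes then tested.

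Several classical members of that list were near 0 or were not called. Ifit1 and Ifit2, which encode cytosolic RNA-binding effectors, had 0 counts over Control and 6 and 7 over SOX17KO, and Ifit3 had 1 and 2. Isg15, a ubiquitin-like modifier gene, was at 0.618 ± 0.0744 and 1.19 ± 0.111 CPM (SD, n = 3; edgeR adjusted p = 0.0792). Cmpk2, a nucleotide kinase gene, had 6 counts over Control and 80 over SOX17KO, with 2.59, 0.175 and 0.443 CPM in SOX17KO replicates 1, 2 and 3. Trim25, a ubiquitin ligase gene and the most abundant of the list, was at 113.99 and 119.6 CPM (edgeR adjusted p = 0.704). Ifit1, Ifit2, Ifit3, Isg15 and Cmpk2 were named after their values were seen. As in the 3 Ifitm genes, SOX17KO replicate 1 was the highest of the SOX17KO libraries for 27 of the 37 (73.0%), against 40.0% of all tested genes. Median log2 differences from the Control mean over the 37 were 0.51, 0.10 and 0.22 in SOX17KO replicates 1, 2 and 3. Those of the 3 Ifitm genes were 5.21, 3.11 and 2.85, and the largest difference among the 37 tested genes of the list was 3.48, in SOX17KO replicate 1. The 3 Ifitm genes were chosen as higher in this contrast, so nothing is read from their larger differences. Cmpk2, too low to be tested, is not among the 37.

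**Figure D4:**
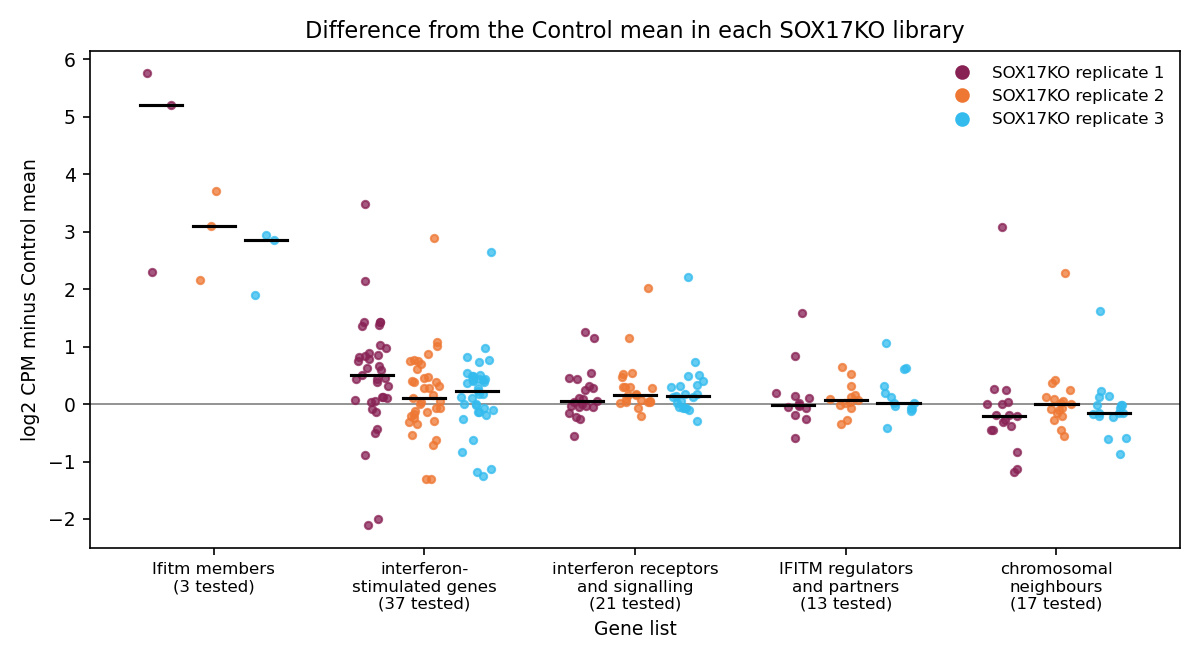
Difference of log2 CPM from the Control mean in each SOX17KO library for the tested genes of the Ifitm family and of 4 gene lists; a point is a gene and a bar the median. The Ifitm medians are 5.21, 3.11 and 2.85, and the medians of the other lists lie between -0.20 and 0.51. The Ifitm genes were chosen as higher in this contrast, so their larger medians follow from that choice.

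By edgeR's test 3.67% of all tested genes rose and 3.2% fell, and their median log2 fold change was 0.01. Of the 21 interferon receptor and signalling genes, all tested, 3 rose, 0 fell and 18 were not called. The median log2 fold change of the 21 was 0.18. The 3 were Irf1, a transcription factor that binds ISRE-like sites, Ifngr1, a chain of the interferon gamma receptor, and Jak2, a kinase of that receptor. Irf1 was at 30.6, 28.2 and 27.6 CPM in Control replicates 1, 2 and 3 and at 68.5, 41.9 and 48.0 CPM in the SOX17KO libraries in the same order, with a log2 fold change of 0.88 ± 0.18 (SE; edgeR adjusted p = 0.0341) that was 0.64 without SOX17KO replicate 1. Those of Ifngr1 and Jak2 were 0.42 each (edgeR adjusted p = 0.0371 and 0.0373). None of the 3 was called with library totals only, without any one Control library or without SOX17KO replicate 3 (over all of these the highest edgeR adjusted p was 0.160 for Irf1, 0.193 for Ifngr1 and 0.197 for Jak2), and Jak2 was not called without the low-count filter. Ifnar1 and Ifnar2, the chains of the type I interferon receptor, were at 56.4 and 2.12 CPM in Control and 58.4 and 3.77 CPM in SOX17KO (edgeR adjusted p = 0.793 and 0.283). Stat2 and Irf9, which encode transcription factors that act at the ISRE, had log2 fold changes of -0.08 and 0.42 (edgeR adjusted p = 0.800 and 0.263). The role of these 4 led to their being named, with their values already seen. Ptpn11, a phosphatase gene and the most abundant of the list, differed by -0.01 on the log2 scale (edgeR adjusted p = 0.974).

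Of 13 genes whose products modify, carry or bind IFITM proteins, all tested, 1 rose, 1 fell and 11 were not called. The median log2 fold change of the 13 was 0.04. For this list and those that follow, the shares over all tested genes were 3.67% higher and 3.2% lower. Cd81, which encodes a tetraspanin that forms a surface complex with IFITM1, was at 120.1, 121.8 and 119.4 CPM in Control replicates 1, 2 and 3 and at 213.9, 187.6 and 183.2 CPM in the SOX17KO libraries in the same order. Its log2 fold change was 0.69 ± 0.08 (SE; edgeR adjusted p = 0.00531), and it was not called without Control replicate 2 or 3 (highest edgeR adjusted p 0.0527). Cd9, another tetraspanin gene, fell from 804.0 ± 7.13 to 590.6 ± 49.95 CPM (SD, n = 3), a change of -0.44 on the log2 scale (edgeR adjusted p = 0.0307), and lost its call when any one Control library, or SOX17KO replicate 3, was left out (highest edgeR adjusted p 0.164). Nedd4, which encodes a ubiquitin ligase that acts on IFITM3, was at 795.2 and 819.2 CPM (edgeR adjusted p = 0.853). Zdhhc20, a palmitoyltransferase gene, and Zmpste24, a membrane protease gene, had log2 fold changes of 0.04 each (edgeR adjusted p = 0.916 and 0.893) and were named after their values were seen, for their role. Of 8 listed genes of other restriction factors at the cell surface or at entry, 5 had rows under the symbols searched. Of those, 4 were tested, and Bst2 and Serinc3 rose. Serinc3, which encodes a membrane protein that lowers the infectivity of retroviral particles, rose from 272.5 ± 3.44 to 407.5 ± 66.0 CPM (SD, n = 3; edgeR adjusted p = 0.0397). Neither was called without any one Control library; Bst2 was not called without SOX17KO replicate 2, nor Serinc3 without SOX17KO replicate 3 or with library totals only. Ly6e, the most abundant of these at 1414 and 1359 CPM, was not called (edgeR adjusted p = 0.883). Among 17 tested Wnt targets, 4 were higher and 0 lower: Lgr5, Mmp7, Lef1 and Sp5. Lgr5, the gene of an intestinal stem cell receptor, had a log2 fold change of 1.70 ± 0.15 (SE; edgeR adjusted p = 0.00171) and Mmp7, the gene of the metalloprotease matrilysin, one of 1.95 ± 0.27 (SE; edgeR adjusted p = 0.00824). Ccnd1, the cyclin D1 gene and the most abundant of these, was at 643.3 and 661.1 CPM and was not called (edgeR adjusted p = 0.898). Lef1, a transcription factor of the pathway, had a log2 fold change of 3.98 ± 0.66 (SE; edgeR adjusted p = 0.0157) and, without any one Control library or with limma-voom, was not called. It was 3.14 when SOX17KO replicate 1 was left out, and that of Mmp7 was then 1.63. EdgeR called 1 of the 17, Lgr5, without any one Control library and 8 without SOX17KO replicate 1, and limma-voom called 2. Sp5 was named after its value was seen.

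Over the 6 libraries the log2 CPM of Ifitm1 correlated with that of Ifitm3 at a Pearson r of 0.997, and that of Ifitm2 at 0.956. The points share the group difference and SOX17KO replicate 1, and r is given as a description. Among 9969 other genes with a mean of at least 5 CPM, 2.29% reached an r of 0.95. The 8 with the highest r were Krt23, Fam89a, Arhgef26, Glul, B4galt5, Ccdc101, Cndp2 and Dcaf7 (r 0.995 to 0.997). None lies beside the Ifitm cluster, and the listed chromosomes are 11, 8, 3, 1, 2, 7, 18 and 11 in that order. Krt23, a keratin gene, was at 13.5, 12.1 and 13.0 CPM in Control replicates 1, 2 and 3 and at 80.3, 41.8 and 39.2 CPM in the SOX17KO libraries in the same order. Glul, which encodes glutamine synthetase, was at 12.2 ± 0.506 and 27.5 ± 6.13 CPM (SD, n = 3), and B4galt5, a galactosyltransferase gene, at 16.7 ± 1.26 and 41.6 ± 14.8 CPM (SD, n = 3). Each of the 8 was highest in SOX17KO replicate 1, which follows from choosing them by likeness to Ifitm3. All had smaller differences than Ifitm3, with log2 fold changes from 0.24 to 2.07. Ifitm3 itself was chosen as higher in this contrast, so nothing is read from its larger size. Cndp2 and Dcaf7 were not called (edgeR adjusted p = 0.065 and 0.116). Leaving out SOX17KO replicate 1 took Krt23 from 2.07 to 1.65, Fam89a from 1.80 to 1.37 and B4galt5 from 1.32 to 0.99 on that scale.

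**Figure D5:**
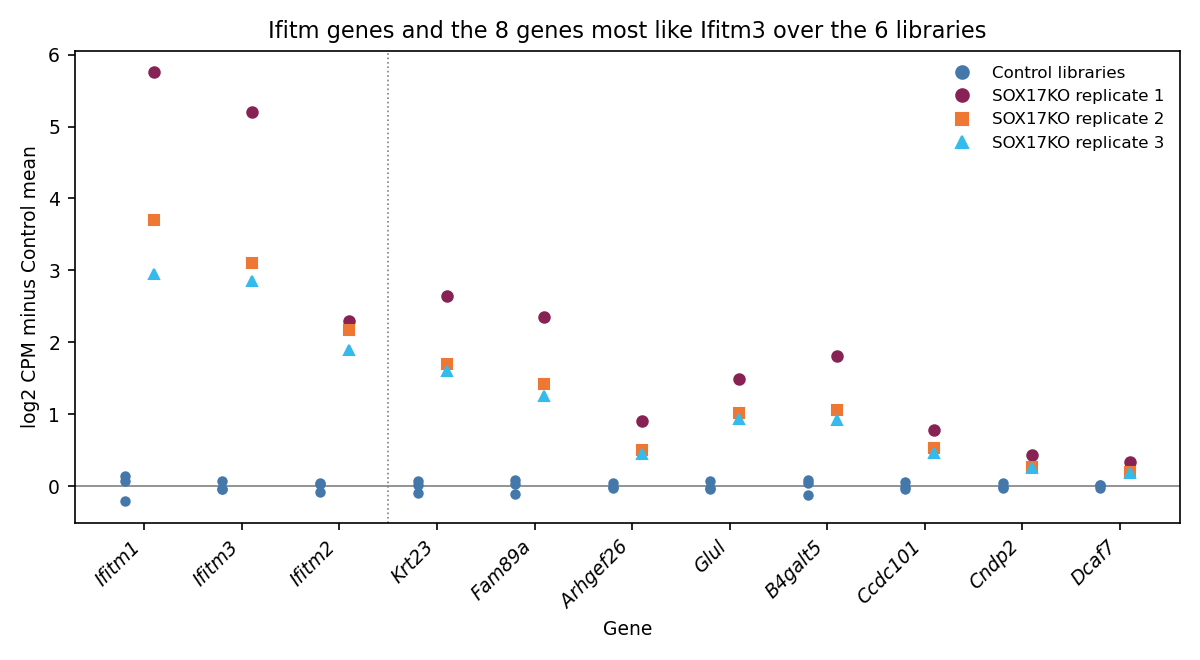
Log2 CPM minus the Control mean in every library for the 3 Ifitm genes and, right of the dotted line, the 8 genes whose values over the 6 libraries correlate most with Ifitm3. Each is highest in SOX17KO replicate 1, which for the 8 genes follows from how they were chosen. The differences of the 8 genes are smaller than those of Ifitm3, which was chosen as higher in this contrast.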

How the data were processed

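RNA from 6 organoid libraries, 3 Control and 3 SOX17KO, was sequenced after poly(A) selection and directional library preparation, per the labels' protocols. The authors deposited expected counts per gene; Bowtie, RSEM and mm9 are named, without versions, per the submitters' processing notes, and the annotation is not given in the sources used here. Rounded counts entered edgeR 4.0.16 and its quasi-likelihood test (TMM factors, filterByExpr with a minimum count of 10 and total of 15, genotype as the coefficient), with Benjamini-Hochberg adjustment over 12137 genes and a threshold of 0.05. Each SE of a log2 fold change is its absolute value divided by the square root of the F statistic of that test. Log2 CPM used a prior count of 2. The procedure was run on simulated data in which both groups had the same spread for each gene. No simulated library stood apart as SOX17KO replicate 1 did, so the simulation does not cover that setting. Depth was 18290912 to 27503254 counts per library.

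The members, gene lists and tests were chosen with earlier results of these data known. Named genes were the members, up to 3 called genes per list by smallest p, the most abundant gene of each list and the 8 genes most correlated with Ifitm3; others are marked in the text. Gene order came from RefSeq (GRCm38.p6), used without gene coordinates; 98.9% of the table's symbols were matched. Alternatives were RLE factors, library totals only, no filter, at least 1 CPM in 3 libraries, DESeq2 1.42.0, limma-voom (limma 3.58.1), unrounded values, a replicate block and each library left out. Ifitm10 was not analysed here.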

Additional observations from a re-analysis of the deposited data

How the results depend on the processing

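Ifitm1, Ifitm2 and Ifitm3 were chosen as higher in SOX17KO, and all their SOX17KO libraries lay above all Control libraries. The sign of their log2 fold changes could therefore hardly turn, and only the sizes are given. With a library left out they were 3.52 to 5.22, 2.04 to 2.24 and 2.99 to 4.53, in that order of genes. Under the other settings they were 4.33 to 4.85, 2.12 to 2.16 and 3.73 to 4.21. For each of the 3 the lowest was without SOX17KO replicate 1. Counts of calls moved more. Of all tested genes 834 were called, 1439 with DESeq2 and 192 to 2708 with a library left out (2708 without SOX17KO replicate 1, and 197, 192 and 202 without Control replicates 1, 2 and 3). Of the interferon-induced genes 3 were called, 7 with DESeq2 and 1 to 12 with a library left out. Of the receptor and signalling genes 3 were called, 0 with library totals only and 0 to 5 with a library left out. For the IFITM partners (2 calls) leaving out a library gave 0 to 3, and for the chromosomal neighbours (0 calls) 0 to 1. For the other restriction factors (2 calls) library totals only gave 1 and leaving out a library 0 to 2. For the Wnt targets (4 calls) limma-voom gave 2 and leaving out a library 1 to 8. The cause of these shifts was not tested. The fits with a library left out also hold fewer libraries than the main fit. These results for the restriction factors and Wnt targets were added after seeing the data.

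Same-numbered libraries did not deviate together from their group means (correlations of -0.19, -0.05 and -0.18 for replicates 1, 2 and 3). With 3 libraries per group the deviations within a group depend on each other. They therefore cannot show whether same-numbered libraries shared a culture or a batch, and the labels used here state no pairing. With the replicate block there were 326 calls over all genes, 1 among the interferon-induced genes, 0 among receptor and signalling genes, 1 among the IFITM partners and 0 among the other restriction factors. Counts limit Ifitm5, Ifitm6 and Ifitm7, for which no fold change is given.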
